A study of Mus musculus with 12 samples.

Results

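Collagen transcripts were examined in colon RNA of mice that lack thrombospondin-1 (TSP-1-/-) and of wild-type (WT) mice. The members were all probes of an Affymetrix mouse gene array whose single gene symbol has the form of a collagen chain (Col, a type number, a and a chain number), which gave 46 probes of 44 genes among 28853 probes. They comprised 11 fibrillar, 8 basement membrane and 27 other collagen probes, and all 46 had values on the 12 arrays. Col6a5 and Col6a6 had 2 probes each.

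Collagens are secreted proteins whose chains wind into a triple helix. The fibrillar types form the tensile fibres of connective tissue, and in the gut wall types I, III and V are made mainly by fibroblasts and smooth muscle cells. Type IV forms the sheet-like network of basement membranes under the epithelium and around vessels, where types XV and XVIII carry attached glycan chains. The other collagens include chains that decorate fibrils, the beaded filaments of type VI, anchoring fibrils and membrane-spanning chains. TSP-1 is a matrix glycoprotein that binds collagen and activates latent TGF-beta, a growth factor known to induce collagen genes.

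The 4 groups held 3 arrays each, labelled as biological replicates, and all mice were of the C57BL/6 strain. TSP-1-/- and WT males, 7 weeks old at the start, received 1 intraperitoneal dose of the colon carcinogen azoxymethane (AOM, 10 mg/kg) and 4 cycles of 7 days of 1.5% dextran sodium sulfate (DSS) in the drinking water, which injures the epithelium. They were killed 15 weeks after AOM. The sources call the treated tissue tumors and the untreated tissue colon, while the account of the RNA names both normal and diseased colon of treated mice, and the label of every array says colon. The TSP-1-/- and WT water groups received no DSS. The methods give the same starting age for the study as a whole, but the labels of the water groups carry the protocol of another DSS experiment, and the time of killing is given for treated mice only. The null allele is constitutive, and the mice were bought from a supplier. The genotypes were compared in AOM/DSS mice and separately in water mice, and AOM/DSS was not set against water. Values are log2 values relative to a baseline of each probe, so they order samples and not genes, and a collagen near background cannot be recognised.

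Some facts of the arrays bear on these comparisons. Thbs1, the targeted gene, read 0.81, 0.85 and 0.93 on the TSP-1-/- AOM/DSS arrays, against 0.27, -0.16 and -0.069 on the WT AOM/DSS arrays (log2 difference 0.85, limma adjusted p = 0.0729). By the study's account these mice keep a mutated Thbs1 gene and make no TSP-1 protein. Where the probe lies relative to the mutation is not given in the sources used here, so this value does not check the genotype, and every direction below rests on the labels. The array of TSP-1-/- AOM/DSS replicate 3 spread most widely (SD over all probes 0.751, against 0.293 to 0.453 on the other 11 arrays), and it held pancreatic enzyme transcripts (median 5.48 over 8 genes, against -0.095 and 0.0050 on the first and second replicates of that group). In the water set, the same genes had a median of 1.22 on TSP-1-/- replicate 1, and between -0.17 and 0.074 on the other arrays. WT AOM/DSS replicate 1 read -3.44 for Hoxb6 and -3.08 for Hoxd4, position genes of the gut that were chosen after their values were seen. For both genes the TSP-1-/- arrays of the AOM/DSS set lay between -3.43 and -2.60, and the other 2 WT arrays of that set between 0.11 and 1.28. In the water set, replicate 3 of each genotype lay between 0.68 and 1.26 for these genes, and the remaining water arrays between -0.64 and 0.11. The part of gut position in the results was not tested. Over all probes the median log2 difference on the AOM/DSS arrays was 0.127, and 62.8% of probes lay above 0. Differences, folds and calls below are given against 0, and that shift was not taken off unless another scaling is named.

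In AOM/DSS-treated mice, collagen transcripts lay mostly higher in TSP-1-/- than in WT colons, and the largest differences were in Col12a1, a chain that coats fibrils, and Col1a1, the main chain of type I collagen. Of the 46 probes, 41 had a positive difference and 36 lay above the median of all probes. The median log2 difference was 0.42 for fibrillar collagens (9 of 11 positive), 0.38 for basement membrane collagens (7 of 8 positive) and 0.31 for the other collagens (25 of 27 positive). These class medians lay 0.29, 0.25 and 0.19 above the median of all probes, in that order. Col1a1 and Col12a1 passed an adjusted p of 0.05 (Benjamini-Hochberg over 28815 probes, limma) together with a 2-fold minimum. They make 2 of 46 members called higher (4.35%), beside 1.74% of all probes, a count too small to set the members apart from the array. No member was called lower, beside 1.05% of all probes. The count of 2 became 1 when TSP-1-/- AOM/DSS replicate 3 was left out and 0 when WT AOM/DSS replicate 3 was. It stayed 2 without WT AOM/DSS replicate 1, the highest WT array for Col1a1 (-0.29, against -0.77 and -0.57) and Col12a1 (0.075, against -0.075 and -0.63). In that fit, TSP-1-/- arrays low in Hoxb6 and Hoxd4 met only WT arrays high in both. Genotype and gut position cannot be told apart in it.

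With the adjusted p alone, Col5a2, Col3a1 and Col18a1 were added, which gave 5 of 46 members higher (10.9%) beside 5.39% of all probes, and 0 lower beside 2.93%. An unadjusted p under 0.05 was found for 18 members with a positive difference, beside 21.4% of all probes, and for 0 with a negative one, beside 10.9%. The measured RNA came from whole tissue, in which more cells that make a collagen and more collagen RNA per cell cannot be told apart. Scaling changed the split over all probes, with 500 higher and 302 lower calls as reported, 396 and 414 with each array centred on its median, 259 and 391 when the arrays of a set were quantile normalized together, and 78 and 105 when all 12 were. The collagens gave 2, 2, 2 and 0 higher calls and 0 lower calls under the same settings.

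**Figure D1:**
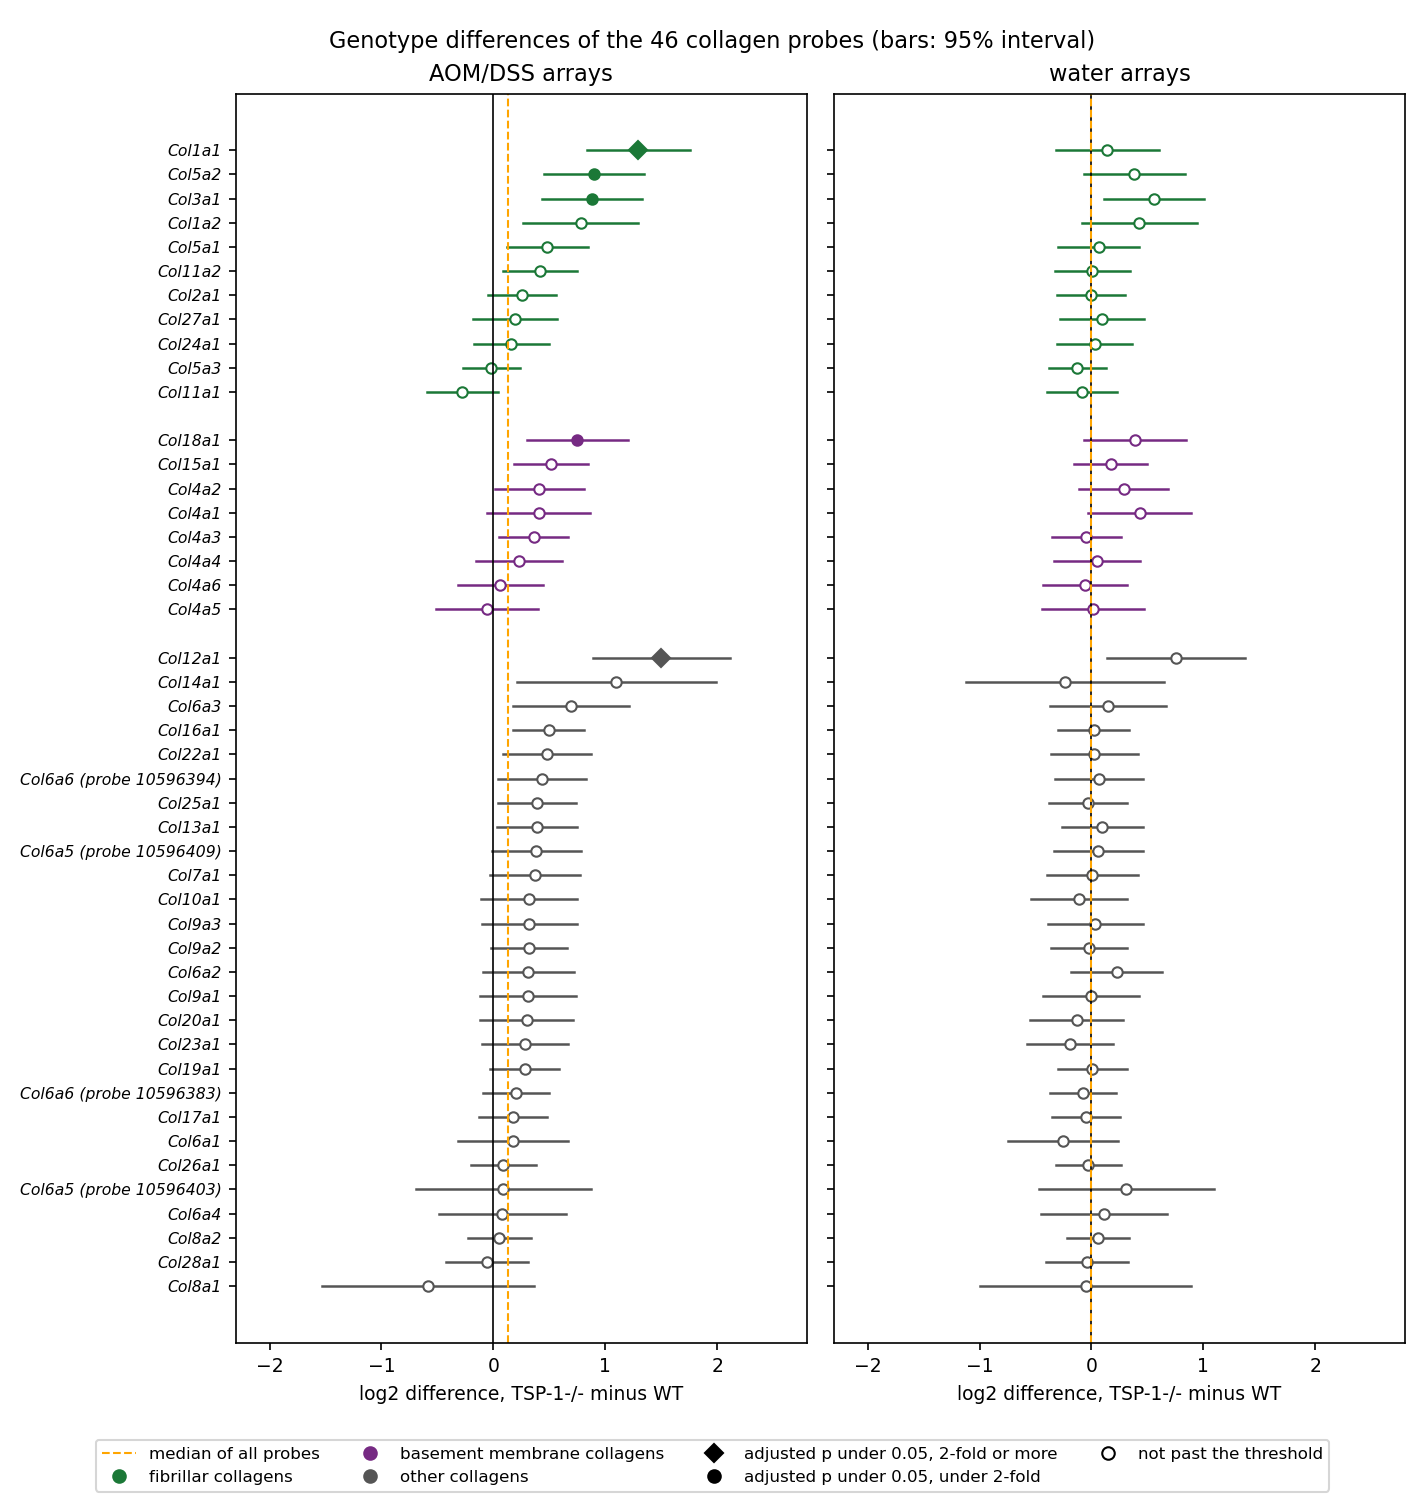
Log2 difference (TSP-1-/- minus WT) of the 46 collagen probes on the AOM/DSS arrays (left) and the water arrays (right), with 95% intervals, ordered within the fibrillar, basement membrane and other classes, and the median of all probes as a dashed line. On the AOM/DSS arrays 41 points lie above 0 and Col1a1 and Col12a1 are the members called, while on the water arrays 28 lie above 0 and no member is called.

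The upstream sequences of the leading genes are shown because members with high values on the same arrays differ in them. RefSeq windows of 250 bases before the annotated start (GRCm38.p6) were matched for 35 of the 44 genes. Of the 5 members with an adjusted p under 0.05 and Col1a2, the partner chain of Col1a1, those that matched were Col3a1 (chr1:45311288-45311537, plus strand), Col1a2 (chr6:4505368-4505617, plus strand) and Col18a1 (chr10:77166531-77166780, minus strand). Capitals mark the CCAAT box, written ATTGG where it lies on the opposite strand, the GC box GGGCGG, there written CCGCCC, and the TATA box TATAAA, there written TTTATA. Both strands were searched, and no marked motif overlaps another.
Col3a1: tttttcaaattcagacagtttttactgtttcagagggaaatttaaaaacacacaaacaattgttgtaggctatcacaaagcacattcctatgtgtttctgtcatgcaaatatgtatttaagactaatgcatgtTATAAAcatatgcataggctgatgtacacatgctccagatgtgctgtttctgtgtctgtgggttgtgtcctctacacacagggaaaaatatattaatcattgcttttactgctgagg
Col1a2: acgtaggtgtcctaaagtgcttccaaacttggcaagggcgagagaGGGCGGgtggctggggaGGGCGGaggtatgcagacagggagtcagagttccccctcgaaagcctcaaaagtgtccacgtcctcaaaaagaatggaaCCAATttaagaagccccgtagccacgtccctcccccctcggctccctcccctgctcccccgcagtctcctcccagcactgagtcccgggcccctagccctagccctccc
Col18a1: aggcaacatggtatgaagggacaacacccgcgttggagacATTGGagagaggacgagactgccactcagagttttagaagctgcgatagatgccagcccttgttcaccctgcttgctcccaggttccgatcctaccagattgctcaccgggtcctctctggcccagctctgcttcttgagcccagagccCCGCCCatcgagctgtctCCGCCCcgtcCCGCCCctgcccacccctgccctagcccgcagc
The Col3a1 window held 1 TATAAA and neither of the other motifs, and 35.2% of its bases were G or C. That TATAAA lay near the middle of the window and not close to the annotated start. The Col1a2 window held 1 CCAAT and 2 GGGCGG, and the Col18a1 window 1 CCAAT and 3 GGGCGG, with 62.0% G or C in each. A second annotated start of Col18a1 (chr10:77113706-77113955, minus strand) had none of the 3 motifs in its window. Of all 32817 windows in the table, 33.8% held CCAAT, 32.7% GGGCGG and 12.4% TATAAA, and the matches describe letters, not bound sites.

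Type I collagen, the main protein of scar and of the submucosa, is built of Col1a1 and Col1a2 chains. On the AOM/DSS arrays, Col1a1 (probe 10380419) read 0.46, 0.51 and 1.29 in TSP-1-/- mice, against -0.29, -0.77 and -0.57 in WT mice. All 3 TSP-1-/- arrays lay above all 3 WT arrays, and TSP-1-/- replicate 3 lay highest. The means were 0.75 ± 0.46 in TSP-1-/- and -0.54 ± 0.24 in WT mice (SD, n = 3 each). The log2 difference was 1.30 (SE 0.21, 2.46-fold, adjusted p = 0.0140), with a 95% interval of 0.84 to 1.76. Col1a2 (probe 10536220), the partner chain, read 0.23, 0.28 and 1.05 in TSP-1-/- mice, against -0.098, -0.34 and -0.35 in WT mice. These groups did not overlap either, but the difference of 0.78 (SE 0.24, 1.72-fold, adjusted p = 0.0572) did not pass.

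Col3a1 and Col5a2, the chains of type III collagen and of the type V collagen that sits inside type I fibrils, are neighbouring genes on chromosome 1. Col3a1 (probe 10346015) read 0.22, 0.18 and 0.84 in TSP-1-/- mice, against -0.26, -0.59 and -0.56 in WT mice, a log2 difference of 0.88 (SE 0.21, 1.84-fold, adjusted p = 0.0312). Col5a2 (probe 10354309) read 0.34, 0.59 and 0.96 in TSP-1-/- mice, against -0.14, -0.067 and -0.61 in WT mice, a log2 difference of 0.90 (SE 0.21, 1.87-fold, adjusted p = 0.0301). In both genes every TSP-1-/- array lay above every WT array, and both fell short of 2-fold. Col5a2 reached 2-fold, with an adjusted p under 0.05, without TSP-1-/- AOM/DSS replicate 1 (log2 difference 1.05) or without WT AOM/DSS replicate 2 (1.00), and Col3a1 without TSP-1-/- AOM/DSS replicate 2 (1.00). Their adjusted p missed 0.05 without TSP-1-/- AOM/DSS replicate 3 (0.0887 for Col3a1 and 0.0928 for Col5a2) and without WT AOM/DSS replicate 3 (0.110 and 0.112). The same held for Col3a1 without WT AOM/DSS replicate 2 (0.0616).

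The remaining fibrillar chains had smaller differences. Col5a1, the other main type V chain, and Col11a2, a chain of the cartilage collagen XI, had log2 differences of 0.48 (adjusted p = 0.0774) and 0.42 (adjusted p = 0.0908), without overlap between the groups. Col2a1, Col27a1 and Col24a1, known from cartilage and bone, lay between 0.16 and 0.26, and Col5a3 was at -0.017. Col11a1, the partner of Col11a2, had the lowest fibrillar value at -0.28 (adjusted p = 0.201). The fibrillar class as a whole had array medians of 0.22, 0.11 and 0.38 in TSP-1-/- mice, against -0.14, -0.078 and -0.35 in WT mice.

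**Figure D2:**
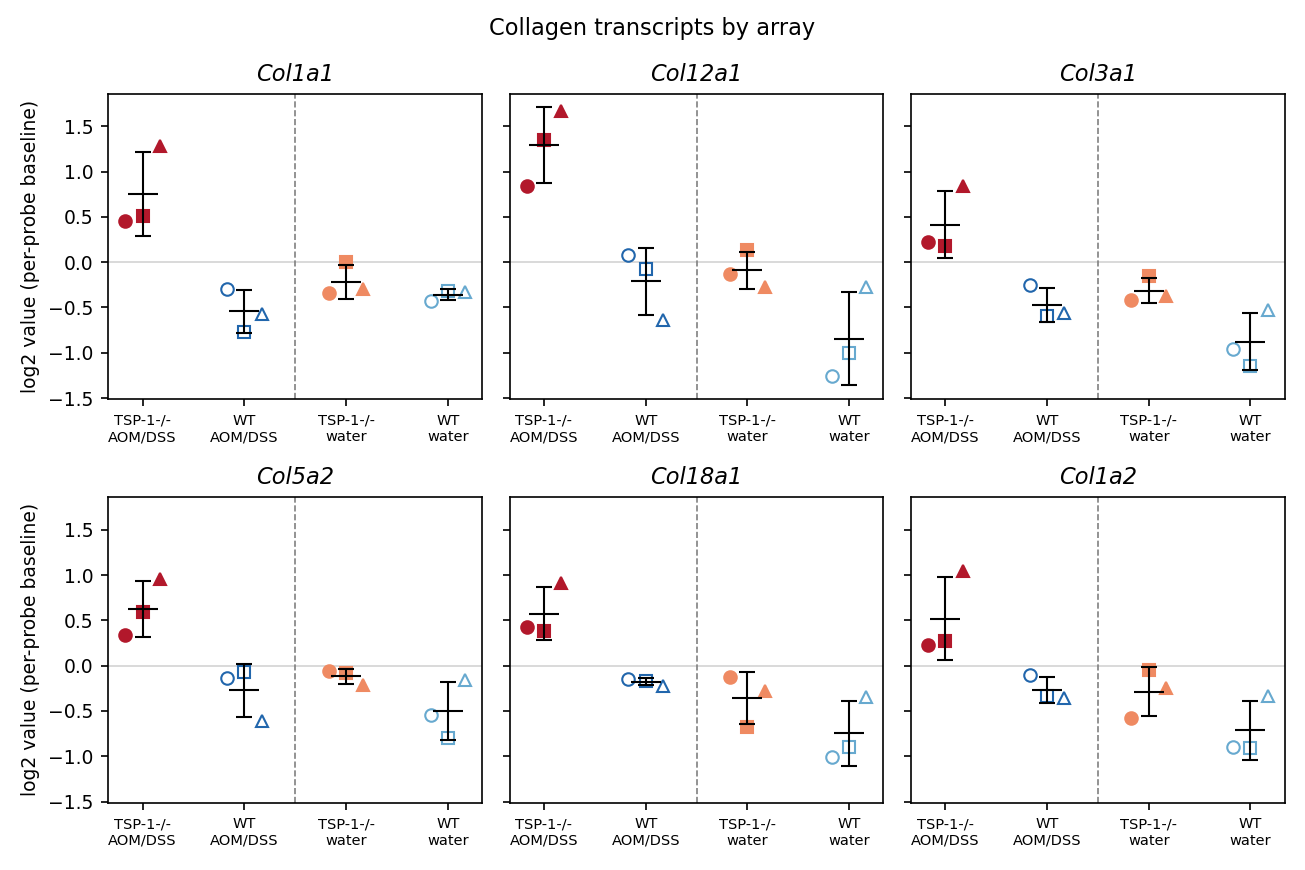
Log2 value relative to the probe baseline of Col1a1, Col12a1, Col3a1, Col5a2, Col18a1 and Col1a2 on each array, by group, with mean and SD bars and a circle, square or triangle for replicate 1, 2 or 3. On the AOM/DSS side TSP-1-/- points lie above all WT points in each of the 6 genes, and a dashed line separates the water arrays, which were not set against them.

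Among basement membrane collagens, the proteoglycan-like pair had larger differences (median 0.63) than the 6 type IV chains (median 0.29), which was not tested. Col18a1 (probe 10370259), the source of the angiogenesis inhibitor endostatin, read 0.43, 0.38 and 0.91 in TSP-1-/- mice, against -0.14, -0.16 and -0.22 in WT mice. The groups were apart on all arrays, and the difference was 0.75 (SE 0.21, 1.68-fold, adjusted p = 0.0471), close to the threshold. It passed 0.05 in 2 of the 12 fits that left out 1 array, with adjusted p between 0.0404 and 0.146. Col15a1 (probe 10504775), its nearest relative, read 0.37, 0.15 and 0.66 in TSP-1-/- mice, against -0.11, -0.22 and -0.023 in WT mice, a difference of 0.51 (SE 0.15, 1.43-fold, adjusted p = 0.0533).

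None of the type IV chains passed. Col4a1 and Col4a2, neighbours on chromosome 8 that share a promoter region and make up the common network, had differences of 0.40 (adjusted p = 0.202) and 0.41 (adjusted p = 0.144). Col4a1 (probe 10576973) read -0.019, 0.23 and 0.67 in TSP-1-/- mice, against -0.14, -0.21 and 0.019 in WT mice. Col4a2 (probe 10570068) read -0.16, 0.35 and -0.14 in TSP-1-/- mice, against -0.15, -0.62 and -0.40 in WT mice. In both, TSP-1-/- and WT arrays overlapped, and the highest array was TSP-1-/- replicate 3 for Col4a1 but TSP-1-/- replicate 2 for Col4a2. Col4a3, a chain of the kidney and lung network, had no overlap between groups at 0.36 (adjusted p = 0.108), and its neighbour Col4a4 was at 0.23. The X-linked pair Col4a5 and Col4a6 was near 0, at -0.056 and 0.062.

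Of the other collagens, Col12a1 and Col14a1, which coat fibrils, had the largest differences. Col12a1 (probe 10595211), which links fibrils to the surrounding matrix, read 0.84, 1.36 and 1.68 in TSP-1-/- mice, against 0.075, -0.075 and -0.63 in WT mice. Every TSP-1-/- array lay above every WT array, and the means were 1.29 ± 0.42 in TSP-1-/- and -0.21 ± 0.37 in WT mice (SD, n = 3 each). The log2 difference of 1.50 (SE 0.28, 2.83-fold, adjusted p = 0.0184), with a 95% interval of 0.89 to 2.12, was the highest of all members. The call was lost without TSP-1-/- AOM/DSS replicate 3 (1.31, adjusted p = 0.0580) or WT AOM/DSS replicate 3 (1.29, adjusted p = 0.0770). That of Col1a1 was lost without WT AOM/DSS replicate 3 (1.28, adjusted p = 0.0585). A fit of the 6 AOM/DSS arrays alone ended both calls (adjusted p = 0.108 for Col12a1 and 0.119 for Col1a1), and so did quantile normalization of the 12 arrays (log2 differences 0.98 and 0.95).

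Col14a1 (probe 10424140), a relative of Col12a1 in dermis and gut mesenchyme, read 0.026, 0.53 and 1.62 in TSP-1-/- mice, against -0.60, -0.33 and -0.18 in WT mice. Its difference of 1.10 (SE 0.41, 2.14-fold, adjusted p = 0.0945) exceeded 2-fold without passing, and TSP-1-/- replicate 3 lay far above the other 2 arrays of its group. Over all 9 chains of this kind the differences lay between 0.28 and 1.50, with a median of 0.32. Col16a1 was next at 0.50 (adjusted p = 0.0542), also without overlap between the groups.

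Type VI collagen forms beaded filaments around cells, in which Col6a1 and Col6a2 join a longer chain such as Col6a3. Col6a3 (probe 10356520) read 0.0067, 0.31 and 0.45 in TSP-1-/- mice, against -0.0067, -0.55 and -0.75 in WT mice, a difference of 0.69 (SE 0.24, 1.61-fold, adjusted p = 0.0780). Col6a2 (probe 10370180) read 0.28, 0.042 and 0.29 in TSP-1-/- mice, against -0.042, -0.20 and -0.085 in WT mice, a difference of 0.31 (adjusted p = 0.255). For these chains the groups did not overlap. Col6a1 (probe 10370210), which adjoins Col6a2 on chromosome 10, read -0.11, 0.014 and 0.19 in TSP-1-/- mice, against -0.13, -0.089 and -0.20 in WT mice, with overlap and a difference of 0.17 (adjusted p = 0.612). Of the longer chains on chromosome 9, Col6a6 gave 0.43 and 0.20 on its 2 probes, and Col6a4 gave 0.081. The probes of Col6a5 gave 0.38 and 0.089. The second (probe 10596403) read 0.33, -0.16 and 1.13 in TSP-1-/- mice, against 1.21, -0.096 and -0.083 in WT mice, and replicate 3 of TSP-1-/- and replicate 1 of WT lay far above the rest.

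The membrane-spanning chains had a median difference of 0.34 and none passed. Col17a1 (probe 10468344), the hemidesmosome collagen of epithelial cells, read -0.093, 0.039 and -0.17 in TSP-1-/- mice, against -0.20, -0.039 and -0.51 in WT mice, a difference of 0.17 (adjusted p = 0.398). Col13a1 lay at 0.39, and Col25a1 at 0.39 and Col23a1 at 0.28 had no overlap between the groups. Col7a1, the anchoring fibril of epithelia, lay at 0.37 (adjusted p = 0.186). The lowest member was Col8a1, a short chain of vessel walls, at -0.58 (adjusted p = 0.359). Its values of -0.61, 0.18 and -0.58 in TSP-1-/- mice and 1.29, -0.12 and -0.44 in WT mice overlapped, and WT replicate 1 lay highest.

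Across all members, 17 of 46 had every TSP-1-/- AOM/DSS array above every WT AOM/DSS array, beside 20.2% of all probes, and 0 had the reverse order, beside 10.7%. They were 6 fibrillar, 3 basement membrane and 8 other collagen probes. Array medians of the basement membrane class were 0.14, 0.19 and 0.30 in TSP-1-/- mice, against -0.13, -0.19 and -0.18 in WT mice. Those of the other collagens were 0.16, 0.014 and 0.29 in TSP-1-/- mice, against -0.15, -0.023 and -0.34 in WT mice. Each class thus lay higher on all 3 TSP-1-/- arrays than on the WT arrays. Replicate 2 was the lowest TSP-1-/- array in the fibrillar and other classes, and replicate 1 in the basement membrane class. The medians over all probes were also apart, at 0.042, 0.020 and 0.047 in TSP-1-/- mice, against -0.020, -0.0057 and -0.091 in WT mice. On TSP-1-/- replicate 2 the other collagens (0.014) lay below the median of all probes (0.020).

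Marker genes of the cell types of the colon held between 0 and 3 calls a list on the AOM/DSS arrays, beside 1.74% of all probes called higher and 1.05% lower, and no list was tested as a whole. The positive counts and medians stand beside 62.8% positive and a median of 0.127 over all probes. Of 10 fibroblast markers, 8 had a positive difference and 1, Pi16, was called higher (median 0.42). The median over that list was 0.0096, 0.24 and 0.36 in TSP-1-/- mice, against -0.14, -0.11 and -0.18 in WT mice. All 10 smooth muscle markers had a negative difference, none was called (median -0.47), and the list's array medians of -0.39, 0.13 and -0.84 in TSP-1-/- mice overlapped 0.27, 0.049 and -0.022 in WT mice. All 10 endothelial markers were positive without a call (median 0.42). All 10 leukocyte markers had a positive difference, 3 were called higher (median 1.75), and the list medians were 1.43, 0.45 and 3.10 in TSP-1-/- mice, against 0.042, -0.32 and -0.027 in WT mice. Of 9 adipocyte markers on the array, 3 were called lower (median -2.04), and of 10 epithelial markers 1 was called lower (median -0.43). The glial list had a median of -0.15, and the pancreatic list had 1.91 with no call. The part of these cell types in the collagen differences was not tested.

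**Figure D3:**
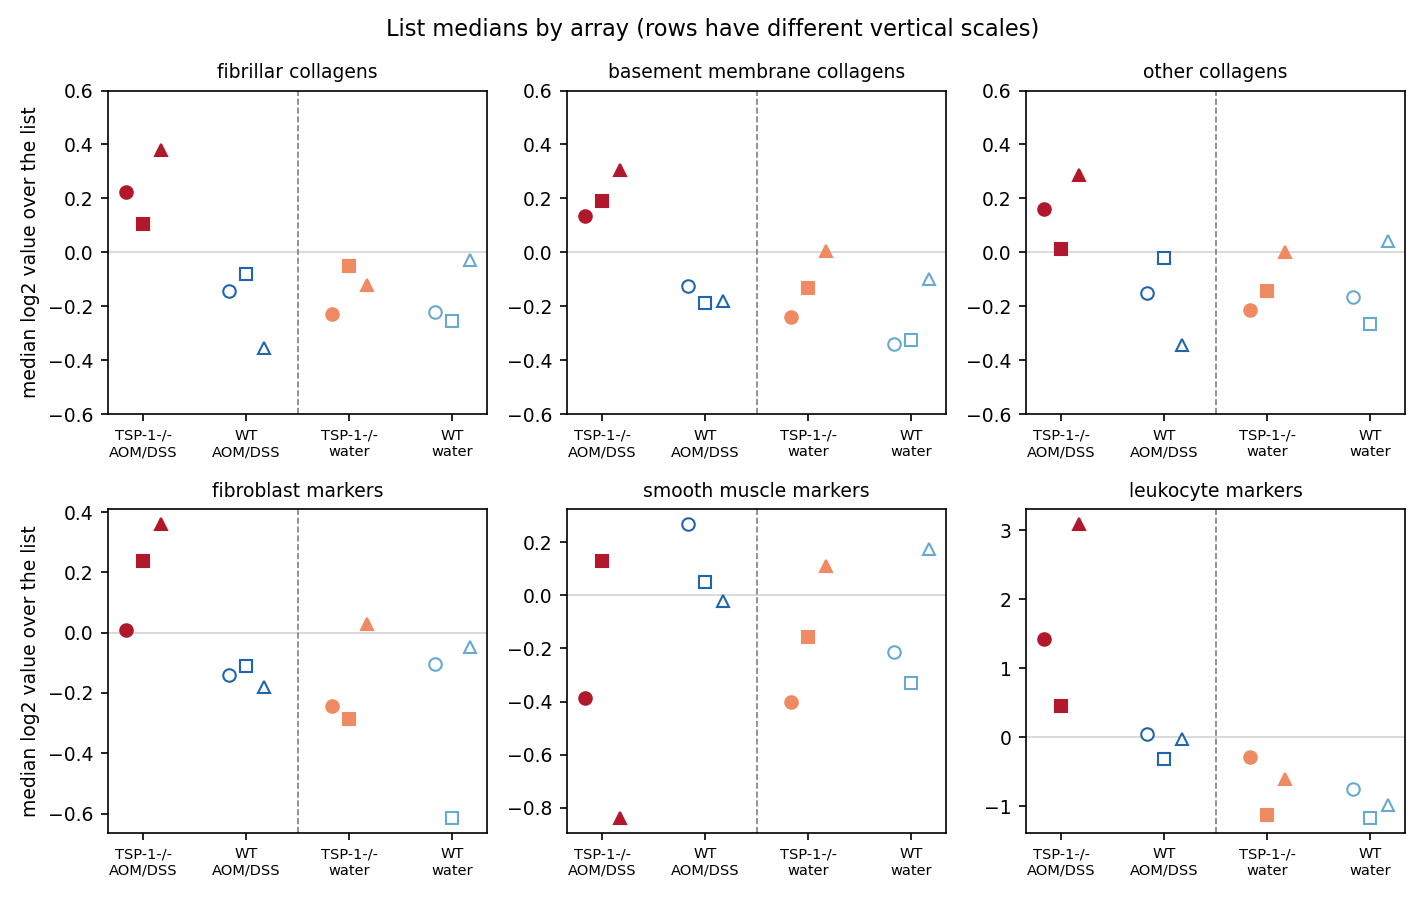
Median log2 value of the fibrillar, basement membrane and other collagens and of the fibroblast, smooth muscle and leukocyte marker lists on each array, by group. In AOM/DSS mice the 3 collagen classes and the fibroblast and leukocyte lists lie higher on every TSP-1-/- array than on any WT array, whereas smooth muscle medians overlap. The medians over all probes, which are not drawn, also lie higher on every TSP-1-/- AOM/DSS array than on any WT AOM/DSS array.

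The genes that make, cross-link and bind collagen were read from 5 lists. Of the folding and modification genes, 2 of 18 were called higher and 0 lower, beside 1.74% and 1.05% of all probes (median 0.047, against 0.127 over all probes). Serpinh1, the chaperone of procollagen, read 0.60, 0.39 and 0.72 in TSP-1-/- mice, against -0.46, -0.56 and -0.96 in WT mice (2.35-fold, adjusted p = 0.0165). The second was Plod2, the lysyl hydroxylase of collagen ends (2.20-fold, adjusted p = 0.0360). Among genes of propeptide removal and cross-linking, none of 11 was called (median 0.48), and Lox, the cross-linking oxidase, had the largest difference (2.71-fold, adjusted p = 0.0661). Among receptors and uptake genes, none of 9 was called (median 0.17), and the inhibitory collagen receptor of leukocytes, Lair1, had the largest difference (1.89-fold, adjusted p = 0.0316).

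Partners of collagen in the matrix included 5 called genes. Of 14 basement membrane partners, 2 were called higher and 0 lower, beside the same 1.74% and 1.05% (median 0.41). They were the laminin chains Lama1, at 1.64, 1.01 and 2.30 in TSP-1-/- mice, against 0.46, -0.39 and -0.61 in WT mice (3.57-fold, adjusted p = 0.0174), and Lama5 (2.65-fold, adjusted p = 0.0301). Of 14 fibrillar partners, 3 were called higher and 0 lower, beside the same shares (median 0.60). They were the adhesive glycoprotein Fn1, at 1.27, 1.76 and 1.78 in TSP-1-/- mice, against 0.81, -0.16 and -0.28 in WT mice (2.79-fold, adjusted p = 0.0178), and the small proteoglycans Fmod, at 0.61, 1.12 and 2.44 in TSP-1-/- mice, against -0.068, -0.19 and -0.32 in WT mice (3.00-fold, adjusted p = 0.0265), and Bgn (2.34-fold, adjusted p = 0.0309). WT replicate 1 was the highest WT array in all 7 called genes of these lists. The 7 calls fell to 0 without WT AOM/DSS replicate 3, to 2 without TSP-1-/- AOM/DSS replicate 3 and to 4 without WT AOM/DSS replicate 2.

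**Figure D4:**
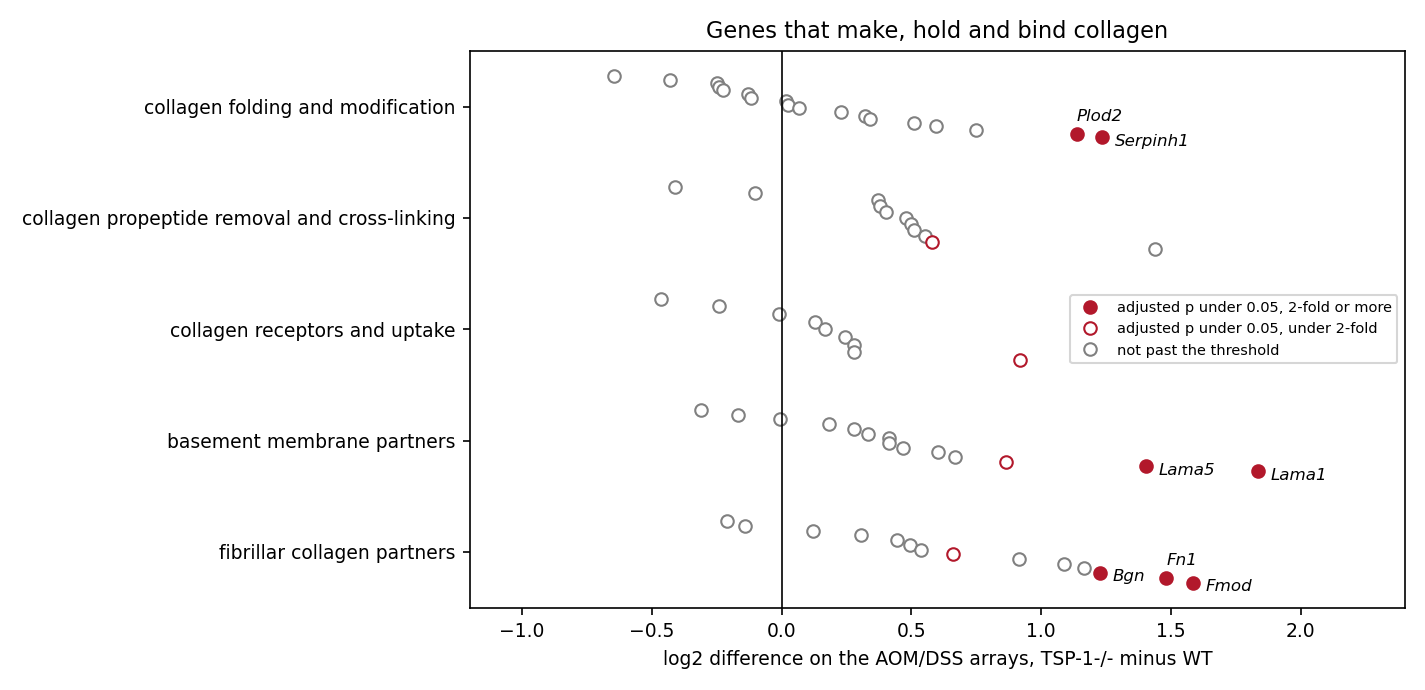
Log2 difference (TSP-1-/- minus WT, AOM/DSS arrays) of each gene of the 5 collagen pathway lists, with the called genes named. The 7 called genes, Serpinh1, Plod2, Lama1, Lama5, Fn1, Fmod and Bgn, lie above 1 and no gene is called lower.

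On the water arrays no collagen passed the adjusted p in limma (0 of 46), beside 0% of all probes. The class medians were 0.067 for fibrillar, 0.11 for basement membrane and 0.0067 for other collagens, beside -0.0018 for all probes, and 28 of 46 members were positive. At an unadjusted p under 0.05, 2 members lay higher, Col3a1 and Col12a1, beside 0.576% of all probes, and 0 lower beside 0.423%. Col3a1 read -0.42, -0.16 and -0.37 in TSP-1-/- mice, against -0.96, -1.14 and -0.53 in WT mice, a log2 difference of 0.56 (95% interval 0.11 to 1.01, unadjusted p = 0.0184). It was the 1 member with TSP-1-/- water arrays all above WT water arrays, beside 2.29% of all probes. Col20a1, a fibril-coating chain, was the 1 member with the reverse order, beside 2.88% (difference -0.13, unadjusted p = 0.504).

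Col12a1 read -0.13, 0.13 and -0.27 in TSP-1-/- mice, against -1.26, -1.005 and -0.27 in WT mice on the water arrays, a log2 difference of 0.75 (unadjusted p = 0.0202). WT water replicate 3 lay just above the lowest TSP-1-/- array, and the other 2 WT water arrays lay below all TSP-1-/- arrays. Col1a1 read -0.34, -0.0010 and -0.30 in TSP-1-/- mice, against -0.42, -0.32 and -0.33 in WT mice, a difference of 0.14 with a 95% interval of -0.32 to 0.60. Col1a2 was at 0.43, Col5a2 at 0.38, Col18a1 at 0.39 and Col15a1 at 0.17. In Col1a2, Col5a2, Col18a1 and Col15a1, WT water replicate 3 was the highest of the WT water arrays. Col4a1 was at 0.43 (unadjusted p = 0.0636) and Col4a2 at 0.29. Col4a1 read -0.22, -0.18 and -0.26 in TSP-1-/- mice, against -0.97, -0.80 and -0.19 in WT mice, and WT water replicate 3 lay among the TSP-1-/- values.

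The chains of type VI lay on both sides of 0 in water, with Col6a3 at 0.15, Col6a2 at 0.22 and Col6a1 at -0.25. Col6a1 read -1.25, -0.19 and -0.51 in TSP-1-/- mice, against -0.47, -0.56 and -0.16 in WT mice, and TSP-1-/- water replicate 1 lay lowest. Col14a1 read -0.90, -0.61 and 0.50 in TSP-1-/- mice, against 0.17, -0.53 and 0.057 in WT mice, a difference of -0.24, with TSP-1-/- replicate 3 above and replicates 1 and 2 below all WT arrays. Col17a1 was at -0.048, and the second Col6a5 probe at 0.31. None of the 5 pathway lists held a call in water, and their medians lay between 0.028 and 0.24. At an unadjusted p under 0.05, 1 folding gene and 3 fibrillar partners lay higher, beside 0.576% of all probes, and 0 genes lower. They were Serpinh1 (log2 difference 0.68, unadjusted p = 0.00778), and the matrix proteins Vcan (0.97, unadjusted p = 0.0136), Tnc (0.88, unadjusted p = 0.0210) and Sparc (0.41, unadjusted p = 0.0367). Of the marker lists, fibroblast genes had a median of 0.17 (9 of 10 positive) and leukocyte genes of 0.31 (8 of 10 positive), with no call, and their part in the water values was not tested.

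Whether the genotype difference was larger in AOM/DSS than in water mice was tested as the difference of the 2 differences, in which the baseline of each array set cancels. No collagen passed in limma, beside 0.00694% of all probes higher and 0% lower. At an unadjusted p under 0.05, 3 members were higher (Col1a1, Col14a1 and Col16a1), beside 9.96% of all probes, and 0 lower beside 5.42%. Col14a1 had the largest value at 1.33 (adjusted p = 0.307). Col1a1 followed at 1.15 (95% interval 0.50 to 1.81, adjusted p = 0.235) and Col12a1 at 0.75 (95% interval -0.12 to 1.62, adjusted p = 0.367). A larger difference in AOM/DSS mice was thus not shown for any collagen.

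**Figure D5:**
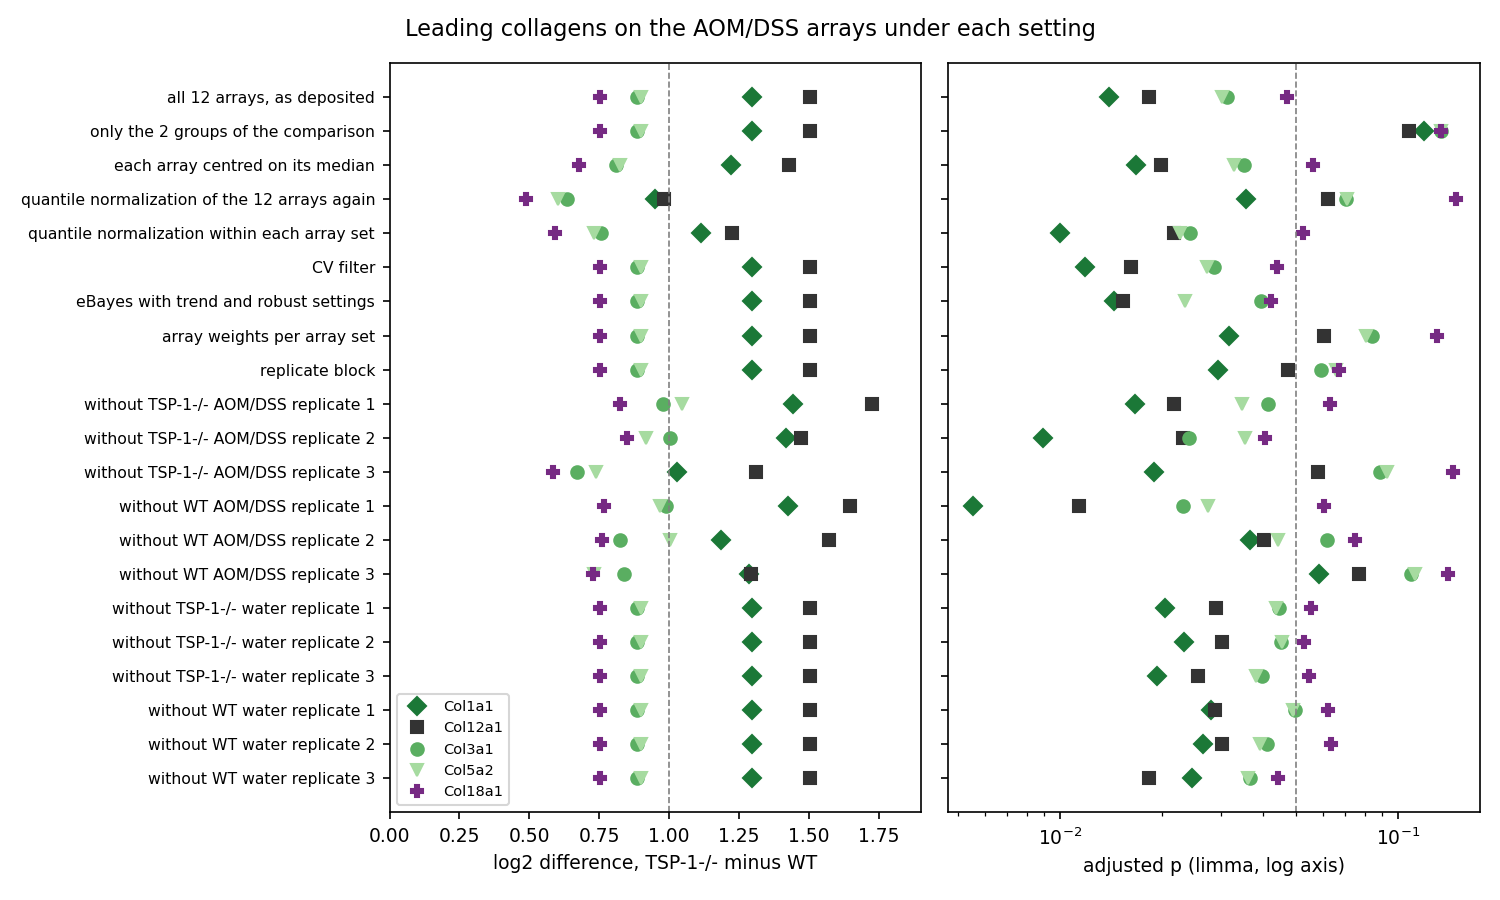
Log2 difference (left) and adjusted p (right, log axis) of Col1a1, Col12a1, Col3a1, Col5a2 and Col18a1 on the AOM/DSS arrays under each setting and with each array left out, with dashed lines at log2 1 and at 0.05; 2 settings that change only the fold minimum are not drawn. All differences stay above 0, and Col1a1 is called in 19 of 22 settings and Col12a1 in 17 of 22. The difference itself can change only with the scaling or with an AOM/DSS array left out, and a lower fold minimum cannot end a call.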

How the data were processed

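RNA of 12 colon samples (4 groups of 3) was hybridised to Affymetrix MoGene arrays. The authors made the deposited log2 values by PLIER16 summarisation with quantile normalization and a baseline transformation per probe, stated as the median of all 12 samples. That median lay within 0.001 of 0 for only 4.18% of probes. Values that mirror each other around 0 (sum within 2e-06), as the middle pair around a median does, lay on 2 AOM/DSS arrays for 20.2% of probes, on 2 water arrays for 6.70% and on 1 array of each set for 0.0347%, so a shared baseline could not be assumed and the 2 sets were not compared. Signal levels cannot be recovered, and the methods' filter on dim probes was not applied. The number of arrays limits the precision. Of 28853 probes, 21789 carried 1 gene symbol, 1621 several and 5443 none in the platform annotation. All columns of per-sample values were used.

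The 28815 probes with values on all arrays were fitted with limma 3.58.1 (R 4.3.3; lmFit and eBayes, 1 mean per group, all 12 arrays) and adjusted by Benjamini-Hochberg over all of them, and a call needed an adjusted p under 0.05 and a log2 difference of at least 1. The p-values rest on 1 spread per probe, pooled over the 3 mice of each of the 4 groups and drawn toward that of other probes. Those for AOM/DSS thus also rest on the water arrays, where the median pooled SD was 0.17, against 0.24 on the AOM/DSS arrays. On simulated data for the AOM/DSS comparison (28815 probes), the fit recovered 81% of 100 probes changed by 1.5 on the log2 scale and 97% of 100 changed by 3, and called 2 unchanged probes. The simulated noise was normal and independent between probes and arrays, with 1 SD per probe averaged over the 4 groups. It held no shift over all probes and no wider array, so these rates check the fit and do not carry over to the real AOM/DSS arrays. Alternatives were the 2 groups alone, other scalings, other fold minima, a filter on the within-group CV (25%), trend and robust settings, array weights, the replicate number as a block and each array left out. Figures and sequence searches used Python 3.11.15, pandas 2.3.3, numpy 2.4.6 and matplotlib 3.10.9.

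The members, classes, marker and pathway lists were chosen with earlier results of these data known. A marker or pathway gene with several probes, such as Adamts3 or Loxl4, counted as 1 gene, with the mean difference and the largest p of its probes. It was called only if all its probes were called in the same direction. The shares of all probes beside the lists count single probes. Values by array were given for Col1a1, Col1a2, Col3a1, Col4a1, Col4a2, Col6a1, Col6a2, Col6a3, Col17a1 and Col18a1, for called members, and for the 3 members with the largest absolute difference in each class and comparison. From the pathway lists, called genes and the largest absolute difference of each list were named. Other genes named with values, such as Col8a1, Col11a1, Col20a1, Vcan, Tnc and Sparc, were chosen after their values were seen.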

Additional observations from a re-analysis of the deposited data

How the results depend on the processing

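The count of 2 collagens called higher on the AOM/DSS arrays fell to 0 in the fit of the 2 groups alone and after quantile normalization of the 12 arrays, and to 1 with array weights. It was 5 with no fold minimum and with a minimum of 1.5. Without 1 array it lay between 0 (without WT AOM/DSS replicate 3) and 3. It was 1 when TSP-1-/- AOM/DSS replicate 3 was left out, and 2 when WT AOM/DSS replicate 1 was. The latter fit keeps only WT AOM/DSS arrays that read high for Hoxb6 and Hoxd4. No setting called a collagen lower, or any collagen in water or in the difference of differences. The AOM/DSS medians after quantile normalization of the 12 arrays were 0.25 (fibrillar), 0.21 (basement membrane) and 0.15 (other), beside 0.018 for all probes. The basement membrane median was 0.31 with arrays centred, 0.26 after quantile normalization within sets, and between 0.26 and 0.44 without 1 array.

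Col6a5 (probe 10596403) turned negative on the AOM/DSS arrays after quantile normalization of the 12 arrays (-0.24), within sets (-0.33) and without TSP-1-/- AOM/DSS replicate 3 (-0.26), WT AOM/DSS replicate 2 (-0.13) or WT AOM/DSS replicate 3 (-0.12), with 0.52 as the highest value without 1 array. Without TSP-1-/- water replicate 1, the water differences of Col6a1 (0.047), Col14a1 (0.046) and Col17a1 (0.0074) turned positive, and their lowest values without another array were -0.48, -0.65 and -0.096 in that order. The cause of these changes was not tested. Calls over all probes (500 higher, 302 lower) were 5 and 1 with the 2 groups alone, 164 and 53 with array weights, 1552 and 845 with no fold minimum, 1289 and 730 with a minimum of 1.5, and between 82 and 889 higher and 22 and 623 lower without 1 array. The 7 pathway calls, recounted under settings chosen after seeing the data, were 0 with the 2 groups alone, 2 after quantile normalization of the 12 arrays, 4 within sets, 2 with array weights and 11 with no fold minimum.

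With the replicate number as a block, 2 collagens, 416 probes higher and 179 lower were called. With the adjusted p alone, the block left 2 of the 5 collagens, since Col3a1 (0.0592), Col5a2 (0.0655) and Col18a1 (0.0669) no longer passed. In AOM/DSS the correlations of deviations from the group means were -0.043 to 0.026 for same-number pairs and -0.022 to 0.052 for other pairs. In water the same-number correlations were 0.093 to 0.40, and those of other pairs -0.38 to 0.18. There TSP-1-/- replicate 1 correlated best with WT replicate 2 (0.18), and the other arrays with their own number. Whether the samples of either set were paired is not given by the labels.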
